A study of Homo sapiens with 4 samples.

Results

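The regions described here are the H3.3 peaks that lie deep inside very long human genes. A member is a distinct interval of either deposited peak list, on chromosomes 1 to 22 and X, that overlaps a GENCODE protein-coding gene of at least 200 kb and lies more than 5 kb from every annotated transcription start site (TSS). Of 88806 distinct intervals without UV, 7943 were members, which is 8.94% (exact 95% interval 8.76 to 9.13%). After UV, 5837 of 77173 intervals were members, which is 7.56% (7.38 to 7.75%). Both lists together held 13780 members among 165979 intervals. Intervals and floors given here cover counting error only.

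Chromatin of wild-type MRC5 human lung fibroblasts was immunoprecipitated with an antibody to the histone variant H3.3, from untreated cells and from cells left to recover for 3 h after 10 J/m2 of UV-C. Which library is untreated rests on its title and its treatment label, since the treatment protocol of both libraries describes the irradiation. The labels call the cells MRC5, and the study's methods describe the immortalised derivative MRC5_VA. Each condition had 1 H3.3 library, made from DNA pooled from 3 replicates, and 1 input library, which was not used here. Since a condition had a single H3.3 library, the conditions were not tested against each other, and no p-value is given. A treatment effect and a difference between 2 libraries cannot be told apart, and in a bulk assay neither can less H3.3 per cell and fewer cells with H3.3 at a site.

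H3.3 is the form of histone H3 that is placed into chromatin outside DNA replication. The chaperone HIRA deposits it where nucleosomes are lost, at promoters, enhancers and along transcribed gene bodies, while ATRX and DAXX deposit it at repeated sequence and heterochromatin. Very long genes are relevant to UV damage because a polymerase that transcribes from the 5′ end meets more lesions the longer the gene, so elongation towards the 3′ end is the last to recover. The comparison asks whether intervals deep inside such genes were as frequent after UV as before it, and whether that depended on the distance from the 5′ end.

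The 4 sequences that follow are shown because they differ in base composition, on which later sections turn. Strength here is the −log10 q that the caller gave the summit. Each is 151 bases of the forward strand of hg38 centred on the summit of the interval, and capitals mark GGGCGG or its reverse complement CCGCCC, the core recognised by SP-family factors. Those of RBFOX2 and PPM1H were among the 5 strongest members of their list and had a counterpart in the other. TENM4 and ATP8A2 were among the 5 strongest without a counterpart, TENM4 in the list without UV and ATP8A2 in the UV list.
RBFOX2, no UV list, chr22:35784754-35784904: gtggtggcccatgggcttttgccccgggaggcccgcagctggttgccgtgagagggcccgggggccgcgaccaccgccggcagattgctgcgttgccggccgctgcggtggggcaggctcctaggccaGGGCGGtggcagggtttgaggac
PPM1H, UV list, chr12:62738921-62739071: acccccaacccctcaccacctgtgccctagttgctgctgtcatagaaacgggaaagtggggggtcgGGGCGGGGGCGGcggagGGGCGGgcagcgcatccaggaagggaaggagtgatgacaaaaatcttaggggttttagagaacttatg
TENM4, no UV list, chr11:79414163-79414313: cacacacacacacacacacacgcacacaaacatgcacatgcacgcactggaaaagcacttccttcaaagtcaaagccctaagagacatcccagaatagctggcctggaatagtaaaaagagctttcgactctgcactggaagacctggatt
ATP8A2, UV list, chr13:26020612-26020762: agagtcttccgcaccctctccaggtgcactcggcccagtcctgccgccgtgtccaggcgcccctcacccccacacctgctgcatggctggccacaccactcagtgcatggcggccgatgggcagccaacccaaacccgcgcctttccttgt

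By −log10 q, the strongest member without UV lay in an intron of RBFOX2, a splicing regulator, 244 kb from the 5′ end and 6.16 kb from the nearest TSS. It had 139 fragments at the summit without UV and 157 after UV. The strongest UV member by −log10 q lay in an intron of DST, the cytoskeletal linker dystonin, 233 kb from the 5′ end, with 222 fragments without UV, more than RBFOX2, and 271 after. Both were among the strongest intervals of their whole list at either condition. The PPM1H interval, in an intron of a protein phosphatase gene, had 70 fragments without UV and 93 after, and that of DPF3, a chromatin reader, had 74 and 90. The EXT1 interval 37.0 kb from the 5′ end had 127 and 151 fragments. The PPM1H, DPF3 and EXT1 sites were named because they were among the 5 strongest members of the UV list. Picked instead from the 5 strongest without UV, the strongest PALM2AKAP2 interval had 80 fragments without UV and 64 after. That of VTI1A, picked in the same way, had 72 and 65. Picking a site for its strength in 1 list favours a higher value there, so no conclusion is drawn from these directions. These fragment numbers were recovered from the deposited fold and −log10 p of each summit and were not scaled to library depth. The lowest local background recovered for any summit of a list was 1.02 fragments without UV and 0.968 after UV.

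The strongest members without a counterpart were much weaker than these. Without UV they lay in TENM4 (28 fragments), a teneurin of cell adhesion, and in GRM8, FNDC3B and EXT1 (23 fragments each) and UTRN (21 fragments). After UV they lay in TTLL11 (38 fragments at 122 kb and 24 at 197 kb from the 5′ end), ATP8A2 (41 fragments), CLEC16A (38 fragments) and DDAH1 (25 fragments). The interval of CLEC16A and that of ATP8A2 overlapped annotated exons, and the 8 others were intronic. Over the 151 bases around the summit, GC content was 84.1% at the stronger TTLL11 summit, 67.5% at ATP8A2 and 47.7% at TENM4.

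Members were slightly narrower and weaker than the lists as a whole. The median width of members was 425 bp (no UV) and 421 bp (UV), against 435 and 449 bp over all intervals. The median summit held 11 and 12 fragments, against 14 and 16 over all intervals of each list. Other intervals more than 5 kb from a TSS, in shorter protein-coding genes or outside such genes, had medians of 12 and 13. The smallest summit held 5 fragments. Ranked by −log10 q within its own list, the median member stood at the percentile 43.0 without UV and 40.2 after UV. Those other intervals stood at 45.3 without UV, and at 42.3 in shorter genes and 43.7 outside genes after UV. Exons held 253 members without UV (3.19%) and 197 after UV (3.38%), and the rest lay within introns. The UV to no UV ratio was 0.779 (0.643 to 0.942) for exonic members and 0.733 (0.709 to 0.759) for intronic ones, so these intervals overlap.

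Many members lay in sequence that occurs many times in the genome. For each interval, 16 words of 24 bases were taken across the 151 bases around the summit, and the median number of exact copies of these words in hg38, both strands, was counted. At 10 copies or more lay 3938 members without UV, which is 49.6% (48.5 to 50.7%), and 3145 after UV, which is 53.9% (52.6 to 55.2%). Of 49709 windows laid every 10 kb over the same long-gene sequence, 10.0% did so (9.78 to 10.3%). At 100 copies or more lay 36.0% of members without UV, 41.0% after UV and 6.16% of the windows. High shares were also found outside long genes, as 68.2% and 68.1% of distal intervals in shorter protein-coding genes and 50.8% and 44.2% of intervals near a TSS reached 10 copies. No background windows were laid over these other classes.

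The share of repeated sequence was higher in stronger intervals, with no further rise seen at the top of the UV list. Without UV it rose from 32.8% in the weakest class, percentiles 0 to 25 of the list, to 72.7% at percentiles 75 to 90 and 82.7% at 90 to 100. After UV the same classes held 35.6%, 77.7% (74.4 to 80.7%) and 73.9% (68.1 to 79.1%), and the last 2 overlap. Of the 5 strongest members, 3 had 10 copies or more without UV and 0 after UV, where all 5 had under 2 copies. The sequences printed above, from RBFOX2, PPM1H, TENM4 and ATP8A2, had a median of 1 copy each. Of the other strong summits named, that of DST without UV had 3, while the strongest of PALM2AKAP2 had 204, the stronger TTLL11 summit had 2538 and VTI1A had 5998 copies. Reads from such sequence can be aligned to several places, and how the authors treated such reads is not given in the sources used here. No repeat annotation was used, so repeat families are not named.

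**Figure D1:**
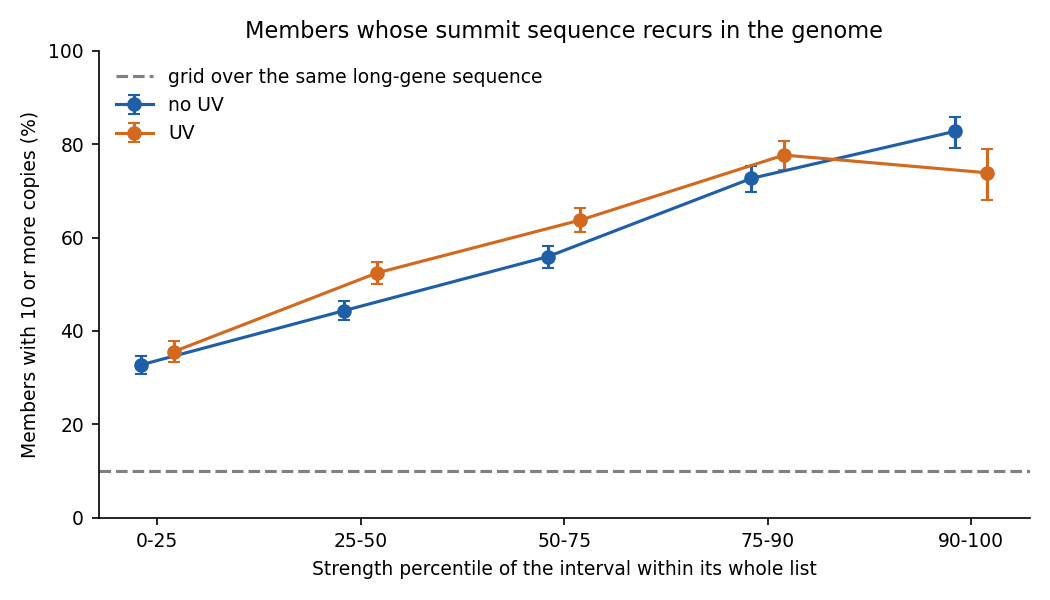
Share of members (y axis, percent) whose summit sequence had 10 or more copies in hg38, by strength percentile of the interval within its whole list (x axis), for no UV (blue) and UV (orange). Bars are exact 95% intervals, and the dashed line is the share in windows laid every 10 kb over the same sequence, 10.0%. The points lie above the line in every class, from 32.8% to 82.7%.

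After UV there were fewer members than before. The counts of 7943 and 5837 give a UV to no UV ratio of 0.735 (0.710 to 0.760). The ratio was 0.792 (0.775 to 0.810) for distal intervals in shorter protein-coding genes, 0.784 (0.766 to 0.803) for distal intervals outside protein-coding genes, and 0.946 (0.934 to 0.958) within 5 kb of a TSS. As counted, the interval of the long-gene ratio thus lay below those of the other classes. The ratio was below 1 on each of the 23 chromosomes, from 0.612 on chromosome 14 to 0.912 on chromosome 19. That separation depended on the strength required. At a −log10 q of 3 or more in both lists the member ratio was 0.801 (0.770 to 0.833), which overlapped 0.834 (0.813 to 0.856) in shorter genes but not 0.859 (0.835 to 0.882) outside genes. At 5 or more it was 0.854 (0.812 to 0.899) and overlapped both, at 0.902 (0.872 to 0.932) in shorter genes and 0.895 (0.864 to 0.926) outside genes. At equal list sizes it was 0.886 (0.855 to 0.918) and again overlapped both, at 0.923 (0.902 to 0.945) and 0.935 (0.912 to 0.958). The intervals also overlapped those of one or both distal classes for genes of at least 100 kb and for intervals more than 10 kb from a TSS. Near a TSS the ratio was higher throughout, at 1.09 for a −log10 q of 5 or more.

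Among members whose summit sequence had under 10 copies the ratio was 0.672 (0.640 to 0.706), from 4005 and 2692 intervals, and at 10 copies or more it was 0.799, from 3938 and 3145 intervals. The direction was thus the same in both kinds of sequence. With under 10 copies, distal intervals outside genes had a ratio of 0.705 (0.681 to 0.729), which overlapped that of members. In shorter protein-coding genes the ratio was 0.795 (0.764 to 0.828), which did not overlap it. Near a TSS, by contrast, intervals with under 10 copies gave 1.07 (1.05 to 1.09). The choice of 10 copies was made after the data were seen.

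The ratio varied little with distance from the gene's 5′ end. At 5 to 20 kb there were 483 members without UV and 398 after UV, a ratio of 0.824 (0.720 to 0.943). At 20 to 50 kb the counts were 890 and 640, a ratio of 0.719. At 50 to 100 kb they were 1316 and 950, a ratio of 0.722. Beyond 100 kb, where most of the sequence lies, the counts were 5254 and 3849 and the ratio was 0.733 (0.703 to 0.764). The ratio beyond 100 kb divided by that at 5 to 20 kb was 0.889 (0.774 to 1.02), an interval that includes 1. In genes of 50 to 200 kb the same quotient was 1.01 (0.916 to 1.11). Members beyond 100 kb made up 66.1% of the list without UV and 65.9% of the UV list.

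What did fall with distance was the density of members, at both conditions. Per Mb of long-gene sequence more than 5 kb from a TSS, there were 27.8 members at 5 to 20 kb, 24.7 at 20 to 50 kb, 21.98 at 50 to 100 kb and 13.7 beyond 100 kb without UV. After UV the same classes held 22.9, 17.8, 15.9 and 10.0 per Mb. Genes of 50 to 200 kb were denser, falling from 61.5 to 30.2 per Mb without UV.

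The decline depended on whether the gene had an interval at its start, defined as an interval within 1 kb of any of its annotated TSSs. Of the 1497 long genes, 746 had one in both lists, 32 without UV alone, 124 after UV alone and 595 in neither. No such split is given here for shorter genes, so the 32 and 124 are not read as a trait of long genes. Genes with a start interval in both lists held 27.3 members per Mb without UV and 19.99 after UV. Genes with none held 6.11 and 4.58 per Mb. In the first group, density without UV fell from 48.7 per Mb at 10 to 20 kb to 15.1 beyond 500 kb, and after UV from 38.2 to 10.3. In genes with no start interval it was 8.67 per Mb at 10 to 20 kb and 5.49 beyond 500 kb without UV. The UV to no UV ratio hardly differed between the groups, at 0.734 (0.706 to 0.763) with start intervals in both lists and 0.750 (0.692 to 0.814) with none. Where a start interval was present after UV alone it was 0.739 (0.640 to 0.852), and without UV alone 0.691 (0.545 to 0.874). An interval at the start is a mark of H3.3 there and not a measure of transcription.

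**Figure D2:**
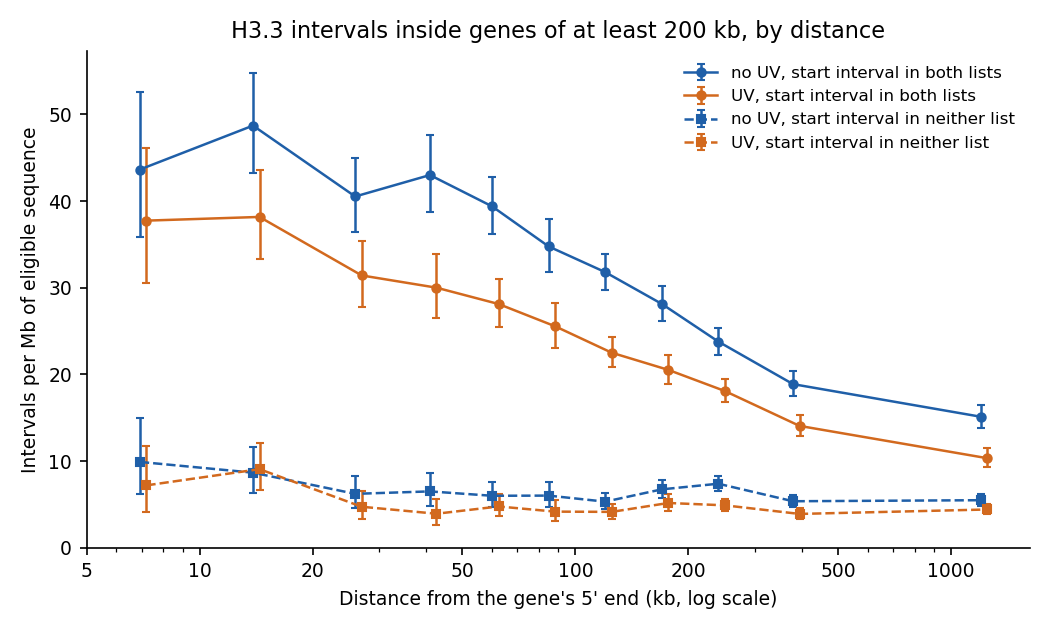
Density of members (y axis, intervals per Mb of long-gene sequence over 5 kb from a TSS) by distance from the gene's 5′ end (x axis, kb, log scale), for no UV (blue) and UV (orange), in genes with a start interval in both lists (circles, solid) or in neither (squares, dashed). Bars are exact 95% Poisson intervals. The solid curves fall from 48.7 and 38.2 per Mb at 10 to 20 kb to 15.1 and 10.3 beyond 500 kb, and the dashed ones stay below 10.

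Part of this decline moved with repeated sequence. Over all long genes, members with 10 copies or more fell from 151 per Mb of such sequence at 5 to 20 kb to 66.4 beyond 100 kb without UV. Members with under 10 copies fell less, from 11.9 to 8.06 per Mb. In genes with a start interval in both lists the latter numbers were 20.2 and 12.9 per Mb, and in genes with none 4.55 and 4.14. The separation between the 2 groups of genes was therefore present in both kinds of sequence. The longest genes were also the sparsest. Density without UV was 25.3 per Mb in genes of 200 to 300 kb, 18.6 at 300 to 500 kb, 11.6 at 500 to 1000 kb and 6.29 above, with ratios of 0.768, 0.723, 0.708 and 0.714. On either side of the length threshold, genes of 190 to 200 kb held 601 and 477 intervals, and genes of 200 to 210 kb held 336 and 286.

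Base composition was the feature with which the ratio moved most. Members had a median GC content of 45.96% without UV and 47.2% after UV, against 39.4% for the long-gene sequence they were drawn from. Under 35% GC there were 333 members without UV and 151 after UV, a ratio of 0.453 (0.372 to 0.551). From 35 to 40% the counts were 910 and 487 (0.535), from 40 to 45% 2170 and 1325 (0.611), from 45 to 50% 2786 and 2181 (0.783), and from 50 to 55% 1293 and 1063 (0.822). At 55% and over the order turned, with 451 members without UV and 630 after UV, a ratio of 1.397 (1.24 to 1.58). Distal intervals elsewhere ran alongside, from 0.494 under 35% to 1.33 at 55% and over. Divided by that of other distal intervals, the member ratio was 0.932 as counted and 0.995 when compared within equal classes of GC content. The lower ratio inside long genes was thus not seen at equal GC content.

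The same order held for members with under 10 copies, from 0.456 under 35% to 1.54 (1.34 to 1.77) at 55% and over. Among members with 10 copies or more it ran from 0.627 at 35 to 40% to 1.01 (0.778 to 1.31) at 55% and over. The part of GC content in the difference between the libraries was not tested. At equal GC content the class of 5 to 20 kb had 1.10 times the ratio of all members and that beyond 100 kb 1.00 times.

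**Figure D3:**
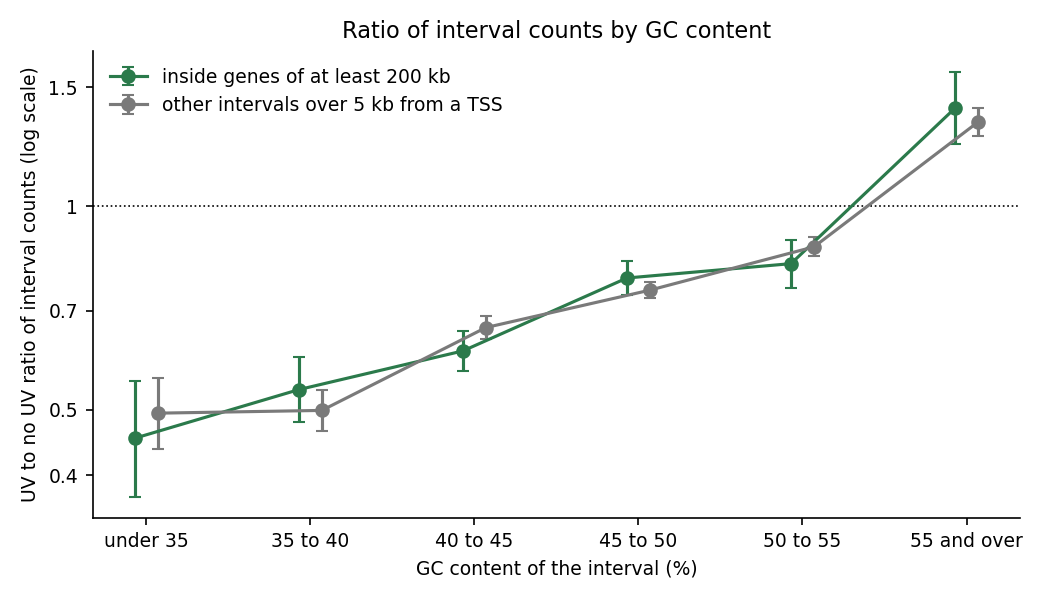
UV to no UV ratio of interval counts (y axis, log scale) by GC content of the interval (x axis, percent), for members (green) and other intervals over 5 kb from a TSS (grey). Bars are 95% intervals for counting error. Members ran from 0.453 to 1.397 and other distal intervals from 0.494 to 1.33, crossing 1 at the highest class.

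Many members of either list had no counterpart in the other. Of the members without UV, 4212 had no overlapping UV interval, which is 53.0% (51.9 to 54.1%), where 42.7% of all intervals of that list had none. For other distal intervals of that list the share was 51.9% (51.1 to 52.6%) in shorter protein-coding genes, which overlapped that of members. Outside protein-coding genes it was 47.0% (46.2 to 47.8%), and within 5 kb of a TSS 36.4%. Of the UV members, 2008 had no overlapping interval without UV, which is 34.4% (33.2 to 35.6%), and the share over all UV intervals was also 34.4%. Other distal UV intervals had none in 38.4% of cases in shorter protein-coding genes and 31.2% outside genes. The members without a counterpart were mostly the weak ones. Without UV their share was 77.3% at percentiles 0 to 25 of strength and 1.30% (7 members) at percentiles 90 to 100. After UV these shares were 52.3% and 1.52% (4 members). Median summits held 9 fragments without and 15 with a counterpart before UV, and 9 and 13 after UV. The depth of the libraries is not given in the sources used here, and its part in these shares was not tested. The background values recovered from the lists are given above.

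The share without a counterpart also varied with GC content. Without UV, 77.5% of members under 35% GC and 29.3% of those at 55% and over had no UV counterpart. After UV both ends were high, since 50.3% of members under 35% GC and 50.3% of those at 55% and over had none without UV, against 26.9% from 40 to 45%. The 3223 pairs of members that overlapped 1 to 1 had passed the caller in both lists, so their values cannot be set against the ratio of counts. In these pairs the fragments at the summit were higher after UV in 1161, lower in 1756 and equal in 306, with a median log2 ratio of -0.12. The median was -0.07 for distal pairs in shorter protein-coding genes and -0.07 for those outside genes, and 0.13 near a TSS. For members of 55% GC and over it was 0.31.

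Members were spread over many genes, though unevenly. Of 1497 long genes, 1155 held at least 1 member and 342 held none, while 959 had members in both lists. The 10 genes with the most held 8.07% of gene assignments without UV and 8.74% after UV, and the 100 with the most held 36.2% and 37.9%. A neighbour in the same gene and list lay within 5 kb for 64.1% of members without UV and 58.1% after UV. The share that random placement within each gene would give was not computed, so clustering within genes was not tested. Across the 1497 genes, the counts of the 2 lists had a Spearman correlation of 0.90, which describes genes that share libraries and differ in length.

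EXT1, which encodes a glycosyltransferase that builds heparan sulphate, stood first with 124 members without UV and 107 after UV, or 426 and 368 per Mb. These were spread along the gene, with 89 and 76 beyond 100 kb from the 5′ end. Of its members, 67.1% had 10 copies or more. PLCB4, a phospholipase C, held 79 and 55, PRKCA, protein kinase C alpha, 75 and 53, and DST 71 and 54. ASAP1, a regulator of Arf GTPases, held 62 and 52, and TRIO, a guanine nucleotide exchange factor, 53 and 37. PALM2AKAP2, a scaffold protein of protein kinase A, held 45 and 37, and the readthrough gene IQCJ-SCHIP1 47 and 32. Of the 10 genes with the most members, 9 had fewer after UV, and COL5A1 had more.

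MAML2, a coactivator of Notch signalling, was the exception among these 10 in having no start interval in either list. It still held 57 members without UV and 34 after UV, of which 35 and 17 had under 10 copies. Its strongest sites were shared, and 33 members without UV had no UV counterpart against 10 the other way.

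**Figure D4:**
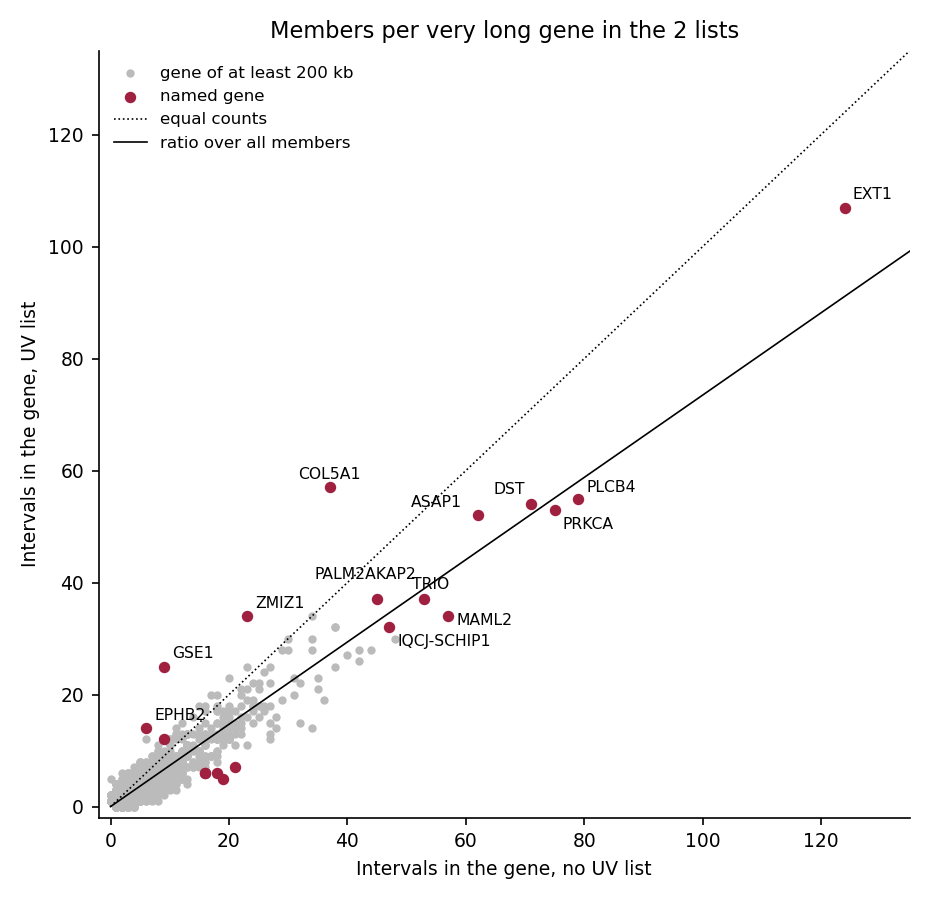
Number of members per long gene without UV (x axis) and after UV (y axis), each point 1 gene, with named genes in red. The dotted line marks equal counts and the solid line the ratio over all members, 0.735. EXT1 stands at 124 and 107, and COL5A1, ZMIZ1 and GSE1 stand above the dotted line.

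Most genes with enough members to compare had fewer after UV. Of 449 long genes with at least 10 members in both lists together, 356 had fewer after UV, 56 had more and 37 had equal counts, with a median ratio of 0.72. A fall was also common at any length. Of all 1431 protein-coding genes with as many distal intervals, 1013 had fewer after UV, 261 had more and 157 had equal counts. The median ratio was 0.778 for these and 0.818 for the 982 shorter genes among them. At least 1.5 times more without UV was found in 189 genes (42.1%), and 36.1% of all 1431 protein-coding genes with as many distal intervals met that criterion. At least 1.5 times more after UV was found in 12 genes (2.67%), where 4.82% of all such genes met it. At a −log10 q of at least 5 the 189 genes became 50, and the 12 became 15. These are calls from 1 library per condition and small counts, so a single gene has a wide interval.

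The lowest ratios among genes with at least 20 members were those of FRMD5, with 19 members without UV and 5 after UV, CCBE1, a secreted regulator of lymphatic growth, with 21 and 7, and ARHGAP42, a GTPase-activating protein, with 18 and 6. RBFOX2 and SPOCK1, a testican proteoglycan, each had 16 and 6. The ratio for FRMD5 was 0.263 (0.0768 to 0.729). In RBFOX2 the strongest interval was kept, and 12 of its 16 members without UV had no counterpart. Members of these 5 genes had median GC contents from 44.8 to 47.8% without UV.

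Among genes with at least 20 members, the highest ratios belonged to genes with members of high GC content. GSE1, a chromatin-associated protein, had 9 members without UV and 25 after UV, a ratio of 2.78 (1.25 to 6.76), at a median GC content of 62.2 and 61.3%. COL5A1, the alpha chain of type V collagen, had 37 and 57, a ratio of 1.54 (1.00 to 2.40), at 60.5 and 60.2%. ZMIZ1, a transcriptional coregulator, had 23 and 34 at 59.4 and 61.5%. EPHB2, an ephrin receptor, had 6 and 14 at 52.5 and 55.1%, and GALNT2, which starts O-linked glycosylation, had 9 and 12, at 51.3% after UV. In COL5A1 only 12.8% of members had 10 copies or more, in GSE1 8.82% and in ZMIZ1 8.77%. Grouped by the median GC content of their members, the 47 genes at 50% and over had 582 members without UV and 611 after UV, a ratio of 1.05 (0.936 to 1.18). The 118 genes from 46 to 48% had 1980 and 1414, a ratio of 0.714 (0.667 to 0.765).

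**Figure D5:**
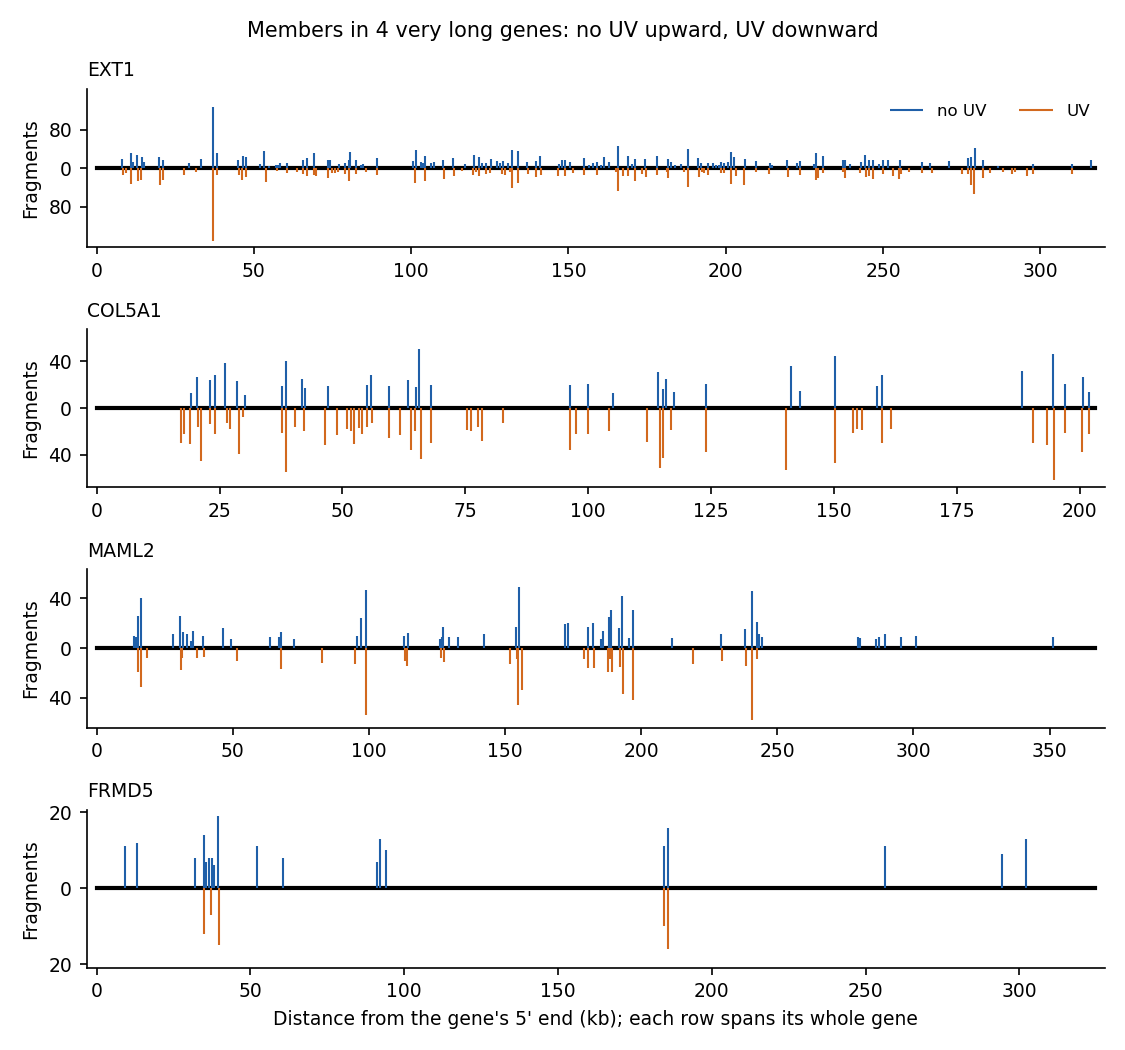
Members along EXT1, COL5A1, MAML2 and FRMD5 by distance from the 5′ end (x axis, kb), with fragments at the summit (y axis) for no UV upward in blue and UV downward in orange, not scaled for depth. Counts were 124 and 107 in EXT1, 37 and 57 in COL5A1, 57 and 34 in MAML2 and 19 and 5 in FRMD5, and the tallest site of EXT1 recurs in both lists.

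Gene groups differed far more in density than in ratio. The 4 groups were lists of long genes chosen by name, and none is a complete set of its kind. The 30 listed genes of extracellular matrix, adhesion and signalling held 600 members without UV and 470 after UV, a ratio of 0.783 (0.693 to 0.885), at 49.5 and 38.8 per Mb. Over all long genes the densities were 16.0 and 11.8 per Mb. EXT1 and DST led this group, while COL11A1, a fibrillar collagen, held no member and LAMA2, a laminin chain, held 0 and 1. Of the 30 genes, 23 had fewer members after UV and 4 had more. The 26 listed genes of transcription factors held 242 and 165, a ratio of 0.682 (0.556 to 0.834), at 25.6 and 17.5 per Mb. TEAD1, a Hippo pathway factor, led with 38 and 32, followed by RUNX1 with 42 and 26. In this list EYA4, which the paper calls a tyrosine phosphatase, held none and ZBTB20 held 0 and 1.

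The listed neuronal genes were nearly empty. Their 23 genes held 90 members without UV and 66 after UV, or 3.11 and 2.28 per Mb, and 18 of them had a start interval in neither list. NRXN3, a neurexin, held 28 and 16, and ROBO2, an axon guidance receptor, held 13 and 13. No member was found in 7 of them, the longest being CSMD1 and PCDH15. The 10 listed genes of common fragile sites, which break under replication stress, held 75 and 51, or 5.06 and 3.44 per Mb. Median length was 1307 kb for the neuronal genes and 1678 kb for those of fragile sites, against 319 kb over all long genes. All long genes of 1000 to 3000 kb held 6.29 and 4.49 per Mb, so these low densities were not set apart from gene length. FHIT held 19 and 12 and CTNNA3 14 and 13, while WWOX held 1 and 0 and MACROD2 1 and 2. The ratio of 0.680 (0.467 to 0.983) for fragile sites and that of 0.733 (0.526 to 1.02) for neuronal genes did not differ from 0.736 over all gene assignments beyond counting error.

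Start intervals did not check the cell type. They were present at 5 of 10 fibroblast markers without UV and 6 after UV, COL1A1, COL1A2 and PDGFRB among them, but also at 5 of 7 epithelial markers in both lists, such as CDH1 and SFTPC. Of 5 neuronal markers 1 had one in both lists, and of 5 leukocyte markers 1 without UV and 0 after UV.

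Short recognition sequences were searched on both strands in the 301 bases around each summit and in all 9671028 windows of that length in hg38. TGANTCA, a loose form of the AP-1 site, was present in 10.3% of members without UV (9.60 to 10.9%) and 10.1% after UV (9.35 to 10.9%). These shares were slightly above the 9.18% of all windows. Members held it more often than other distal intervals, at 8.85 and 8.43%, and than all intervals, at 7.45 and 6.88%. The part of GC content in these differences was not tested. The share of members with TGANTCA fell with strength, from 12.1% in the weakest class to 7.61% in the strongest without UV, and from 13.2 to 7.58% after UV. GGGCGG was present in 9.33% (8.70 to 9.99%) and 12.8% (11.98 to 13.7%), against 4.11% of all windows. Members held it less often than other distal intervals, at 12.7 and 16.6%, and than all intervals, at 21.1 and 27.8%. The share of members with GGGCGG rose with strength. It went from 6.46% in the weakest class to 19.1% in the strongest without UV, and from 7.25 to 32.6% after UV. Members without a counterpart held it in 7.03% of cases without UV and 13.9% after UV. This motif is made of G and C alone, so its share moves with GC content, and the 2 were not told apart. The letters TGTGGTT of RUNX factors were in 4.17 and 3.68% of members and 5.69% of windows, and GGAATGT of TEAD factors in 3.07 and 2.62% against 4.85%. CCGGAAG of ETS factors was in 0.919 and 1.15% of members against 0.699%. The CTCF motif was in 0.567 and 0.839% against 0.750%, and the palindromic NFI motif in 1 and 2 members.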

How the data were processed

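H3.3 ChIP-seq was analysed in untreated and UV-C-treated MRC5 cells, with 1 library per condition. According to the submitters' processing notes and the methods, the authors used bcl2fastq 2.17, Trimmomatic 3.36, BWA 0.7.12 with hg38 and MACS 1.4.2, and removed duplicate reads. The lists are in the narrowPeak format, which MACS 1.4 does not write, so the version that made them is uncertain. The control, threshold, read depth and treatment of multiply aligned reads for H3.3 are not given in the sources used here. The deposited lists give for each summit a score, a fold enrichment (a linear ratio to local background), and −log10 p and −log10 q, all computed by the authors within 1 library. Whole numbers of fragments were recovered from the fold and −log10 p of 100% of summits, within 0.001 of the −log10 p.

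Distinct intervals were assigned to genes and TSSs of GENCODE release 44, whose build is that of the lists. Several summits of 1 interval were represented by the one with the highest −log10 q. Distance was taken to the 5′ end of the gene, the nearest where an interval lay in several. Densities used long-gene sequence over 5 kb from a TSS, in steps of 100 bp. GC content was compared in 6 classes. Shares and ratios have exact Clopper-Pearson 95% intervals, and quotients of ratios normal ones on the log scale. No test between conditions was made. Scripts were tested on simulated lists. The work was done in Python 3.11.15 (scipy 1.17.1, numpy 2.4.6, matplotlib 3.10.9, pandas 2.3.3).

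Named genes were the 10 with the most intervals, the 5 highest and 5 lowest ratios (0.5 added to each count) among long genes with at least 20, and those of the 5 strongest members and the 5 strongest without counterpart per list. From each of 4 gene lists at most 4 genes were named, those with the most intervals and the fewest per Mb, the longer genes where tied. The members and lists were chosen with earlier results of these data known. The counts of sequence copies, the fragments in paired intervals and the comparisons by motif and strength were added after the data were seen.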

Additional observations from a re-analysis of the deposited data

How the results depend on the processing

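Of 76 recomputed values, 47 stayed within the counting interval of the reported value (counts of genes within 1.5 times) and 29 moved, and none reversed. The UV to no UV ratio stayed below 1 in every alternative. It was 0.801 at a −log10 q of at least 3, 0.854 at 5, 0.886 at equal list sizes and 0.672 for summits with under 10 copies. The quotient beyond 100 kb and at 5 to 20 kb ran from 0.826 to 0.951, and the ratio at equal GC content relative to other distal intervals from 0.977 to 1.02. The share without a UV counterpart was 50.2, 45.3 and 47.6% under those 3 choices of strength, 49.3% with every summit counted, 55.9% at an overlap of 50% and 66.9% with under 10 copies. The converse share was 36.1% at 3, 38.6% at equal sizes, 32.5% with every summit, 38.1% at an overlap of 50%, 49.0% with under 10 copies, and 32.7 or 36.5% for genes of at least 300 or 100 kb. Genes with 1.5 times more members without UV numbered 101, 50 and 78 under the choices of strength, 120 and 360 for genes of at least 300 and 100 kb, 73 at 2 times and 108 with under 10 copies. Genes with more after UV numbered 23 at equal sizes, 4 and 37 for those lengths, 19 with TSSs of protein-coding genes only and 3 at 2 times. The cause of these moves was not tested, except that a higher fold or gene length admits fewer genes by construction. The copy number and the GC comparison by distance were chosen after the data were seen. No paired analysis was possible because each condition had 1 H3.3 library, and for the same reason no replicate could be left out.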

Other observations

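The genes with at least 1.5 times more members after UV were not all GC-rich. Of the 12, 4 (33.3%) had members with a median GC content of 50% or over (COL5A1, EPHB2, GSE1 and HIP1), and 8 lay below. Among the 248 compared genes that met neither criterion, 39 (15.7%) reached 50%, a lower share. PKP4, a junctional plakophilin, had 6 members without UV and 12 after UV at 45.2%, PDGFD, a platelet-derived growth factor, had 5 and 8 at 41.3%, and the histone demethylase gene KDM6A had 4 and 7 at 46.2%. STK32B had 5 and 8 at 49.8%. CNTN5, IGF1R, MMP16 and TGFBR3 each had 4 and 6, at 41.4, 44.9, 42.4 and 41.8%. Of the 189 genes with at least 1.5 times more members without UV, 4 reached 50%, which is 2.12% of them. These genes were listed because of their counts, so the counts are a description.

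Of the 1497 long genes, 142 held members in the list without UV alone and 54 in the UV list alone. The median long gene held 4 members over both lists together, so 1 list can be empty from small counts. No such share is given here for all protein-coding genes. Whether these genes were more than small counts and the longer list without UV would give was not tested. NFIA, a nuclear factor I gene with a start interval after UV alone, held 0 members without UV and 5 after UV. TP63 held 4 and 0, and TCF4 held 3 and 0. These 3 genes were chosen after their values were seen.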
